A study of Homo sapiens with 4 samples.

Results

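Mitochondrial ribosomal protein genes are the nuclear genes named MRPL and MRPS, whose proteins form the large and the small subunit of the ribosome inside mitochondria. They were found as the probe sets that carry a single gene symbol of this form on the platform, pseudogenes left out, which gave 38 genes of 7745 protein-coding genes measured, each read by 1 probe set. By symbol, 21 were large-subunit and 17 small-subunit genes. All lay on chromosomes 1 to 8, so each subunit was covered only in part. The cells were LN229, an established human glioblastoma line, in 4 groups of 1 sample each: polysomal RNA and total RNA of untreated cells, and polysomal RNA and total RNA of cells given ATO at 5 µM over 6 h. The labels leave ATO unexpanded; it commonly stands for arsenic trioxide. All cells were grown in DMEM with serum and gentamycin, and all lysates held cycloheximide, which holds ribosomes on mRNA. Polysomal RNA is taken from the part of the lysate where mRNAs are loaded with several ribosomes. The series' design text states technical triplicates that were pooled, so a sample is a single value, and no difference below has a replicate error or a test.

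Mitochondrial ribosomes translate the few proteins encoded by mitochondrial DNA, all of them subunits of the respiratory chain or ATP synthase. Their rRNAs come from mitochondrial DNA, but every protein of both subunits is encoded in the nucleus, translated by cytosolic ribosomes and imported. Many of these proteins have a bacterial counterpart, and others were added in the mitochondrial lineage. The genes are active in most mammalian cell types, and promoters of nuclear genes for mitochondrial proteins often carry sites for NRF1, for the ETS-family factor GABP and for YY1.

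One sequence shared by several of the genes lies at their start and was not used to choose them. TISU, the translation initiator of short 5′ untranslated regions, is an element that contains the start codon and also matches the site of the factor YY1. Its core, the bases in capitals in the lines that follow, was searched on both strands in RefSeq windows (GRCh38.p14) of 250 bases before to 50 after each gene's start. It was found in 7 of the 33 mitochondrial ribosomal protein genes that had a window (21.2%). The share was 2.41% of 3236 coding genes past the filter on signal and 1.04% of all 27305 genes with a window. Among related classes it was found in 2 of 17 respiratory chain and ATP synthase genes (11.8%) and 0 of 18 cytosolic ribosomal protein genes. These 7 matches are shown as 30-base stretches, 5′ to 3′ on the gene's strand, with the core in capitals, because they are the letters the genes share.
MRPL22, chr5:154941093-154941122, plus strand: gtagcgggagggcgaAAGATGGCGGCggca
MRPL36, chr5:1799855-1799884, minus strand, core on the opposite strand: cccccccccGCCGCCATCTTccttcctggc
MRPS10, chr6:42217832-42217861, minus strand: gggaccggcAAGATGGCGGCgcggacagcg
MRPS18A, chr6:43687762-43687791, minus strand: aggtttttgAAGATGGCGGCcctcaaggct
MRPS18B, chr6:30617854-30617883, plus strand: gcgtacgtcAAGATGGCGGCgtctgtatta
MRPS24, chr7:43869478-43869507, minus strand: gcttggcccAAGATGGCGGCctccgtgtgc
MRPS30, chr5:44808951-44808980, plus strand: tcgcgggcaAAGATGGCGGCggccaggtgt

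In MRPS10, MRPS18A, MRPS18B, MRPS24, MRPS30 and MRPL22 the core lay on the sense strand, beginning between base 10 and base 36 after the start of the transcript. In MRPL36 it lay upstream of the start, on the other strand. The shorter string ATGGCGGC, which lies within the core and was chosen after the windows were seen, was found in 14 of 33 genes (42.4%), against 7.14% of coding genes past the filter. The string GCATGCGC, a core of the NRF1 site, was found in 4 genes (12.1%, against 6.95%), and CCGGAAG, a core of ETS sites, in 12 genes (36.4%, against 22.1%). In 17 respiratory chain and ATP synthase genes the shorter string, the NRF1 core and the ETS core were found in 17.6%, 29.4% and 23.5%. In 18 cytosolic ribosomal protein genes the shares were 5.56%, 11.1% and 38.9%, so the NRF1 and ETS cores are not particular to the mitochondrial ribosomal protein genes. A pyrimidine start, taken as a C at the first base followed by at least 4 pyrimidines, is the mark of the terminal oligopyrimidine mRNAs, to which cytosolic ribosomal proteins belong. It was found in 3 mitochondrial ribosomal protein genes, MRPL44, MRPS27 and MRPS33 (9.09%, against 7.35% of coding genes past the filter), and in 15 of 18 cytosolic ribosomal protein genes (83.3%). A match is a string of letters and not a site shown to be used. Windows on chromosome 8 were left out, which removed MRPL13, MRPL15 and MRPS28 from this search. No window was given for MRPL2 and MRPL35.

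The signals are deposited log2 values, and 0.585 on this scale is 1.5-fold, which the series' design text uses as its threshold. In all, 406 of 65528 probe sets read over 16, beyond what a 16-bit scanner can record on a log2 scale, so a fold here is a fold on the deposited scale and need not be a fold of RNA. The median over all probe sets lay between 4.22 and 4.26 in the 4 samples. Chromosomes 1 to 8 were covered, with 1722 probe sets from chromosome 9, and mitochondrial ribosomal protein genes elsewhere were not analysed here. For the ATO total sample the title gave the group, although the source name reads polysomal. Over 7 probe sets of untranslated RNAs (U1, U4atac, U5 and 7SK) the median difference between the ATO and the untreated total sample was 0.03, whereas the ATO polysomal minus the ATO total sample gave -2.66. Of markers of glioblastoma lines, NES, SOX2, EGFR, PDGFRA and FN1 lay above the filter described next, while the blood, liver and epithelial markers PTPRC, ALB and EPCAM lay below it and the neuronal gene GAD1 above it.

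Signal was read for every one of the 38 genes, and 36 passed a filter at a mean log2 value of 7.8, the median of coding genes, as did 3874 coding genes in all. The other two were MRPL2, the counterpart of bacterial protein L2, at 6.66 to 6.88 in the 4 samples, and MRPL55, at 6.43 to 6.81. The lowest gene above the filter was MRPL19 (mean 8.13), and MRPS21 had the highest mean (16.56). Levels of different probe sets do not rank RNA amounts, since probes differ in their response. Over the 36 genes the polysomal medians were 11.96 (untreated) and 11.84 (ATO) and the total RNA medians 11.395 and 11.44. Over the coding genes past the filter they were 11.225 and 11.20 for polysomal and 11.04 and 11.03 for total RNA.

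Polysomal RNA was set against total RNA to see which of these mRNAs were over- or under-represented on polysomes. Most mitochondrial ribosomal protein mRNAs stood higher in polysomal than in total RNA, in untreated and in ATO cells. The 36 genes had a median difference of 0.43 in untreated and 0.425 in ATO cells, where all coding genes had 0.19 and 0.17. MRPS17, MRPL20, MRPS14, MRPS15, MRPS25 and MRPL36, 6 of the 36 genes, were over 1.5-fold higher in both states, beside a background of 8.42% of coding genes. None was lower in both, beside 2.35%. MRPS27, MRPS18B and MRPS9 lay below 0 in both. In untreated cells 11 of 36 genes (30.6%) passed 1.5-fold on the high side and none on the low side, beside a background of 16.2% of coding genes higher and 4.72% lower. In ATO cells 12 of 36 (33.3%) were higher and none lower, beside 14.7% and 3.92%. The counts depend on how samples are scaled. With each sample centred on its median of coding genes past the filter, 5 genes were higher and 1 lower in untreated cells. Of all coding genes, 6.3% and 9.89% were. In ATO cells the counts were 4 and 0, beside 6.25% and 8.11%. The 5 were MRPS17, MRPL22, MRPS14, MRPL20 and MRPL9, and the 4 were MRPS17, MRPL35, MRPS25 and MRPL36, so MRPS17 was past 1.5-fold in both states also after centring. Relative to the median of all coding genes, the members' median was 0.24 higher in untreated and 0.255 higher in ATO cells. Centring cannot change these values, since it shifts all genes of a sample alike. These are bulk samples, in which fewer cells holding a transcript and less of it per cell cannot be told apart.

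**Figure D1:**
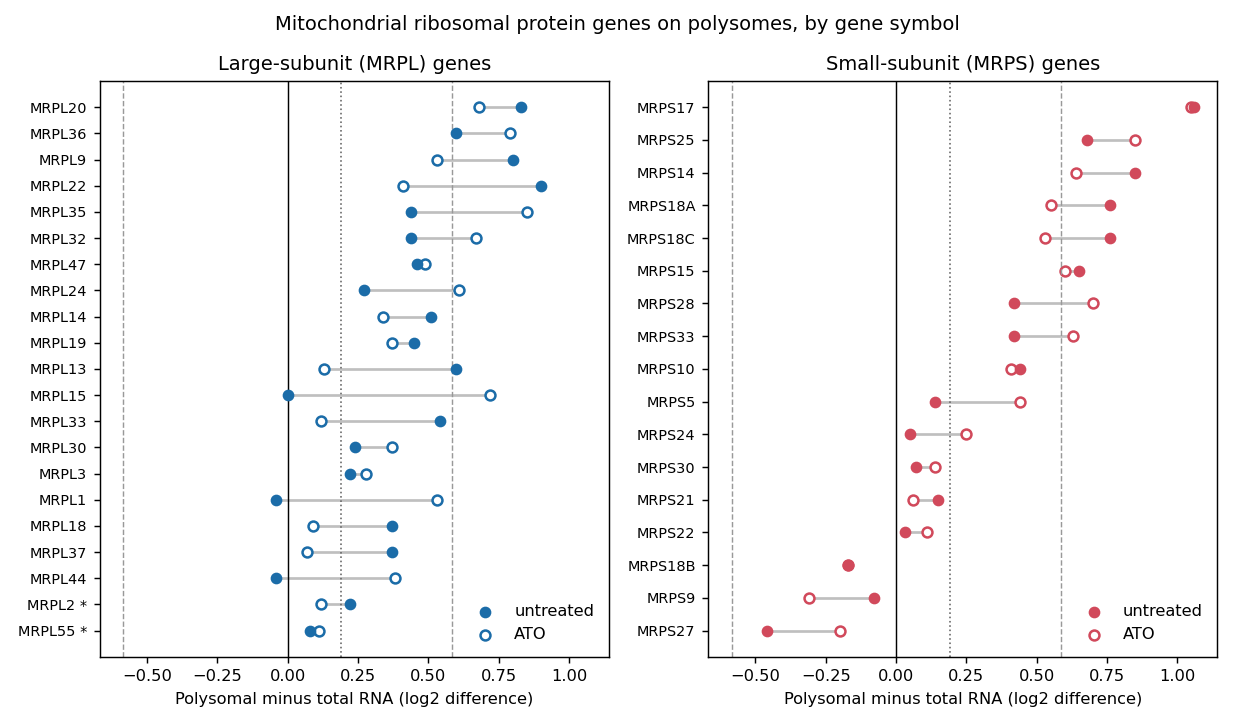
Polysomal minus total RNA (log2 difference, x axis) for each of the 21 MRPL and 17 MRPS genes, filled circles for untreated and open circles for ATO cells, 1 sample per group. Dashed lines mark 1.5-fold, the dotted line the untreated median of all coding genes (0.19), and asterisks the genes below the filter on signal; MRPS17 stands highest in both states, MRPS27, MRPS9 and MRPS18B stand below 0, and both circles of MRPS18B coincide at -0.17.

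Of the 36 genes, 30 lay above 0 in both states (83.3%, against 57.9% of coding genes) and 3 below 0 in both (8.33%, against 23.9%). The over 1.5-fold lists of the states shared 6 genes, which is 54.5% of the untreated list and 50% of the ATO list. Over all coding genes past the filter those shares were 52% and 57.3%. In total 17 genes were over 1.5-fold higher in at least 1 state, beside 22.5% of coding genes, and 19 passed in neither. The differences in the 2 states, which share no sample, correlated across the 36 genes at r = 0.62 (Spearman's rho 0.54), and across all 3874 genes at r = 0.79 (rho 0.78). Genes are not independent replicates, and these correlations describe the samples.

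Among small-subunit genes, MRPS17 on chromosome 7, the counterpart of the bacterial rRNA-binding protein S17, stood highest. Its log2 signal was 12.06 in untreated polysomal and 11 in untreated total RNA, and 11.90 and 10.85 in ATO cells. Both polysomal samples lay above both total samples. The differences were 1.06 (2.08-fold) in untreated and 1.05 (2.07-fold) in ATO cells. It lay above 99.04% of coding genes in untreated and 98.97% in ATO cells, and 0.63 and 0.625 above the median of its own group, so it was the gene standing apart on the high side in each state. MRPS14, the counterpart of bacterial S14, on chromosome 1, read 13.26 and 12.90 in polysomal and 12.41 and 12.26 in total RNA of untreated and ATO cells, differences of 0.85 and 0.64. MRPS15, the counterpart of bacterial S15, also on chromosome 1, read 13.95 and 13.84 against 13.30 and 13.24 (0.65 and 0.60). MRPS25 on chromosome 3 has no bacterial counterpart. It read 10.61 and 10.67 against 9.93 and 9.82 (0.68 and 0.85), so in these small-subunit genes both polysomal samples lay above both total samples.

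MRPS18C and MRPS18A, both homologues of bacterial S18, passed 1.5-fold in untreated but not in ATO cells, at 0.76 each without ATO and at 0.53 and 0.55 with it. MRPS28 and MRPS33 passed it in ATO but not in untreated cells, with 0.70 and 0.63 against 0.42 each. Whether the difference in any of these 4 genes changes between the states was not tested. MRPS10, the counterpart of bacterial S10, stood at 0.44 and 0.41, and MRPS5, the counterpart of bacterial S5, at 0.14 and 0.44. MRPS22, MRPS24 and MRPS30 lay between 0.03 and 0.25 in both states, so their polysomal and total signals were close together. MRPS21, MRPS10 and MRPL30 have pseudogenes whose probe sets also passed the filter (MRPS21P2 at a mean of 10.85, MRPS21P3 at 12.86, MRPS10P1 at 11.94 and MRPL30P1 at 8.99). Near-identical copies can share probes, so values of these 3 genes are uncertain; the other 37 of 41 pseudogene probe sets lay below the filter.

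The 3 genes below 0 in both states were all small-subunit genes. MRPS27 on chromosome 5, a pentatricopeptide repeat protein with no bacterial counterpart, read 10.07 in untreated polysomal and 10.53 in untreated total RNA, and 10.36 and 10.56 in ATO cells. Both polysomal samples lay below both total samples, by -0.46 and -0.20, and with centred samples the untreated difference was -0.645, past 1.5-fold. MRPS18B on chromosome 6, which carries the TISU core, read 12.11 and 12.12 in polysomal and 12.28 and 12.29 in total RNA, a difference of -0.17 in each state. MRPS9, the counterpart of bacterial S9, on chromosome 2, read 10.05 and 9.86 in polysomal and 10.13 and 10.17 in total RNA (-0.08 and -0.31). Relative to the median of the 36 genes, MRPS27 stood at -0.89 and -0.625, MRPS18B at -0.60 and -0.595, and MRPS9 at -0.735 in ATO cells, each more than 1.5-fold away. MRPS9 in untreated cells was less far from the median. Among all coding genes these genes were not extreme: 7.56% of coding genes lay below MRPS27 in untreated and 17.7% in ATO cells.

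**Figure D2:**
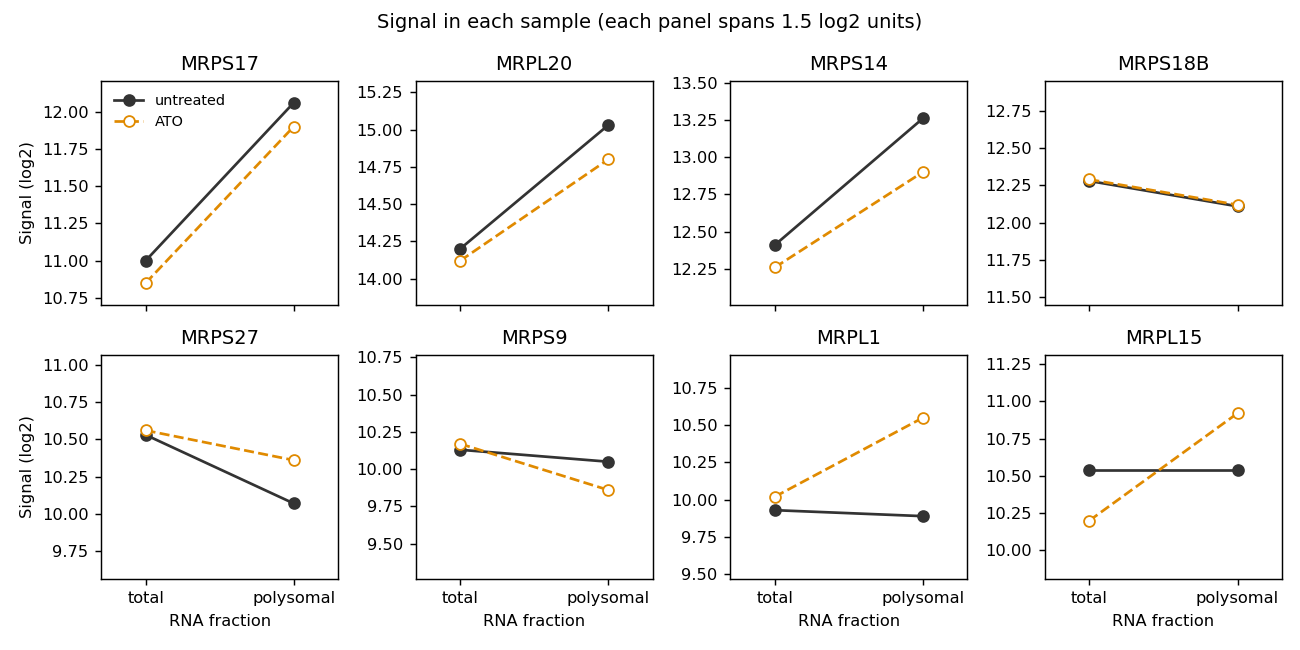
Log2 signal (y axis, each panel spanning 1.5 units) in total and polysomal RNA (x axis) of untreated (filled, solid line) and ATO cells (open, dashed line), 1 sample per point, for 8 genes. MRPS17, MRPL20 and MRPS14 are higher in polysomal RNA in both states, MRPS18B, MRPS27 and MRPS9 are lower, and MRPL1 and MRPL15 are higher in polysomal RNA of ATO cells only.

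Among large-subunit genes, MRPL20 on chromosome 1, the counterpart of bacterial L20, read 15.03 in untreated polysomal and 14.20 in untreated total RNA, and 14.80 and 14.12 in ATO cells. The differences were 0.83 and 0.68. MRPL36 on chromosome 5, a very small zinc-binding protein with a bacterial counterpart, read 12.44 and 12.43 in polysomal against 11.84 and 11.64 in total RNA (0.60 and 0.79). These were the large-subunit genes past 1.5-fold in both states, and in each of them both polysomal samples lay above both total samples. MRPL22, whose bacterial counterpart lines the exit tunnel for the new protein chain, read 9.52 against 8.62 in untreated and 9.18 against 8.77 in ATO cells (0.90 and 0.41). MRPL9 (0.80 and 0.53) and MRPL13 (0.60 and 0.13) likewise passed in untreated but not in ATO cells. The reverse held for MRPL35 (0.44 and 0.85), MRPL15 (0.00 and 0.72), MRPL32 (0.44 and 0.67) and MRPL24 (0.27 and 0.61), counterparts of bacterial L35, L15, L32 and L24. MRPL44, a protein with a ribonuclease III-like domain, and MRPL1, the counterpart of the bacterial stalk protein L1, stood at -0.04 each without ATO and at 0.38 and 0.53 with it. The remaining large-subunit genes past the filter, MRPL3, MRPL14, MRPL18, MRPL19, MRPL30, MRPL33, MRPL37 and MRPL47, lay between 0.07 and 0.54 in both states.

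Over genes past the filter, the large and the small subunit differed little in their medians and more in their spread, but the order of the medians depends on the filter. In untreated cells the 19 large-subunit genes past the filter had a median of 0.44 (quartiles 0.255 and 0.57, range -0.04 to 0.90) and the 17 small-subunit genes 0.42 (quartiles 0.05 and 0.68, range -0.46 to 1.06). In ATO cells the medians were 0.41 (range 0.07 to 0.85) and 0.44 (range -0.31 to 1.05). Over 1.5-fold higher were 5 large- (26.3%) and 6 small-subunit genes (35.3%) in untreated cells, beside 16.2% of coding genes. In ATO cells 6 of each were higher (31.6% and 35.3%), beside 14.7%. In untreated cells 16 of 19 large- but 9 of 17 small-subunit genes lay above the median of all coding genes, as did 1920 of 3874 coding genes. In ATO cells the counts were 15 of 19 and 11 of 17, beside 1932 of 3874. With the filter raised to the 75th percentile, which leaves 21 of the genes, the large minus small difference of medians went from 0.02 to 0.145 in untreated cells and turned from -0.03 to 0.20 in ATO cells. The symbols do not match the subunit in every case, since the MRPS18A and MRPS30 proteins sit in the large subunit of the human mitochondrial ribosome. With these counted there, the medians over 21 and 15 genes stayed at 0.44 and 0.42 without ATO and at 0.41 and 0.44 with it. With 1 sample per group no test of the subunits was run, and the genes analysed cover each subunit only in part.

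Medians lay further apart between genes with and without a bacterial homologue. The 29 genes with one had medians of 0.44 in untreated and 0.49 in ATO cells, with 10 over 1.5-fold higher in each state (34.5%, beside 16.2% and 14.7% of coding genes). The 7 without one, MRPL37, MRPL44, MRPS22, MRPS25, MRPS27, MRPS30 and MRPS33, had medians of 0.07 and 0.14. In untreated cells 1 of them was higher (14.3%) and in ATO cells 2 (28.6%), which on so few genes cannot be set apart from the background. MRPS18A and MRPS18B descend from bacterial S18 but are named as mitochondrial proteins in the nomenclature based on structure. A split by homology was not among the planned comparisons. The split first used had these 2 among the genes without a homologue, and the split above was chosen after seeing the data. In the first split the medians were the same. Of 27 genes with a homologue 9 and 10 were higher, and of 9 without one 2 in each state (22.2%). The classes overlapped, since MRPS25 (0.68 and 0.85) has no homologue and MRPS9 (-0.08 and -0.31) has one, and the gap was not tested.

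The 7 genes with a match to the TISU core on either strand had medians of 0.44 and 0.41. The 25 genes past the filter with a window but no match had 0.42 and 0.44. In MRPL36 (0.60 and 0.79) the match lies outside the transcript, so the medians do not compare mRNAs with and without TISU. The sense matches were MRPL22 (0.90 and 0.41), MRPS18A (0.76 and 0.55), MRPS10 (0.44 and 0.41), MRPS30 (0.07 and 0.14), MRPS24 (0.05 and 0.25) and MRPS18B (-0.17 in each state). The 3 genes with a pyrimidine start were MRPS27 (-0.46 and -0.20), MRPL44 (-0.04 and 0.38) and MRPS33 (0.42 and 0.63).

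The polysomal difference did not follow signal level. Across the 36 genes its rank correlation with the mean log2 signal came to 0.0013 without and -0.0045 with ATO. Across the 3874 coding genes it was 0.05 and 0.07. When coding genes were split into 5 equal bins of mean signal, the untreated median of all genes ran from 0.16 in the dimmest to 0.21 in the brightest bin. The mitochondrial ribosomal protein genes stood above it in every bin, at 0.675 (2 genes), 0.42 (9), 0.42 (9), 0.44 (9) and 0.37 (7) from dim to bright. In ATO cells their bin medians were 0.39, 0.34, 0.49, 0.61 and 0.28, beside 0.13, 0.16, 0.17, 0.23 and 0.21 for all genes. The dimmest bin rests on MRPL19 and MRPL22 alone. MRPS21 read 16.50 to 16.67, above the scanner range in all 4 samples, so its differences of 0.15 and 0.06 do not show whether its signals are close.

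**Figure D3:**
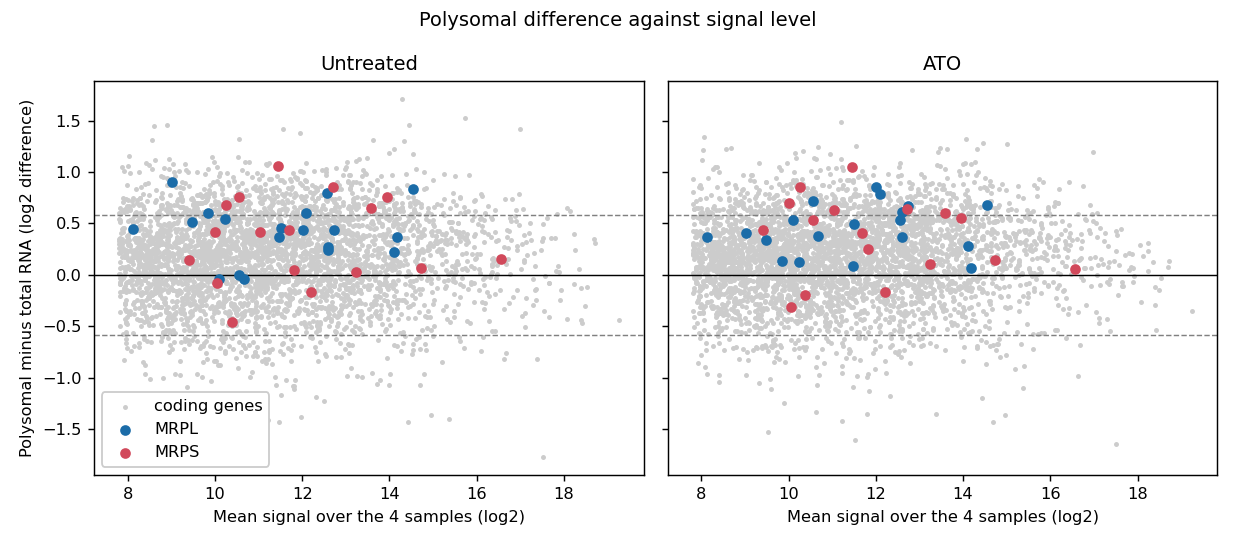
Polysomal minus total RNA (log2 difference, y axis) against mean log2 signal over the 4 samples (x axis) for 3874 coding genes (grey), 19 MRPL genes (blue) and 17 MRPS genes (red), in untreated (left) and ATO cells (right), with dashed lines at 1.5-fold. The coloured points lie mostly above 0 at all signal levels, and none is over 1.5-fold lower.

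Beside the ribosomal proteins themselves, genes that act with the mitochondrial ribosome were described from lists of genes with known roles. DAP3, a GTP-binding protein of the small subunit, and PTCD3, a pentatricopeptide repeat protein of the small subunit, do not carry an MRP symbol. DAP3 stood at -0.10 and 0.13, and PTCD3 at 0.01 in untreated and 0.68 in ATO cells. Of 12 assembly factors past the filter, 2 were over 1.5-fold higher and none lower in untreated cells, and 2 higher and 1 lower in ATO cells, with medians of 0.145 and 0.14, near the 0.19 and 0.17 of all coding genes. MALSU1, an assembly factor of the large subunit, passed in both states (0.87 and 0.79). RCC1L passed in untreated cells (0.80, with 0.51 in ATO cells) and TRMT61B, named after its values were seen, in ATO cells (0.66, with 0.10 in untreated cells). The rRNA methyltransferase MRM2 stood at 0.38 and 0.41. The GTPase NOA1 (-0.48 and -0.70) and the RNA-binding protein FASTKD2 (-0.35 and -0.22) lay below 0 in both states. Of 8 mitochondrial translation factors, none passed 1.5-fold in untreated cells and 2 were lower in ATO cells, with medians of 0.09 and 0.18. GATB, GUF1 and the initiation factor MTIF2 were highest (0.52 and 0.54, 0.55 and 0.40, 0.53 and 0.37). The elongation factor GFM1 (-0.56 and -0.61), LRPPRC, which stabilises mitochondrial mRNAs (-0.45 and -0.73), and the release factor MTRF1L (-0.16 and -0.24) were lowest.

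The lists of mitochondrial DNA upkeep and transcription and of regulators of mitochondrial genes held few measured genes. SSBP1, which binds single-stranded mitochondrial DNA, stood at 0.21 and 0.11, PRIMPOL at 0.11 and 0.09, the transcription factor TFB2M at -0.30 and 0.00, and MTERF1 at -0.39 and -0.04. Of the regulators, NRF1 stood at -0.42 and -0.37 and MYC at -0.76 and -0.68, the latter past 1.5-fold in both states. Against the classes most like the mitochondrial ribosomal proteins, their median lay between the 26 nuclear respiratory chain and ATP synthase genes (0.585 and 0.545, with 13 and 12 over 1.5-fold higher) and the 21 cytosolic ribosomal protein genes (-0.35 and -0.20, with none higher and 3 lower in each state). Of the cytosolic genes, 17 had a mean over 16, beyond the scanner range named above, where the size of a difference is uncertain. The other 4, RPL10A, RPL29, RPS12 and RPS14, had medians of -0.54 and -0.565. Ranges overlapped between the mitochondrial ribosomal proteins and each of these classes, and the cytosolic ribosomal proteins reached no higher than -0.01 in untreated and 0.12 in ATO cells.

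**Figure D4:**
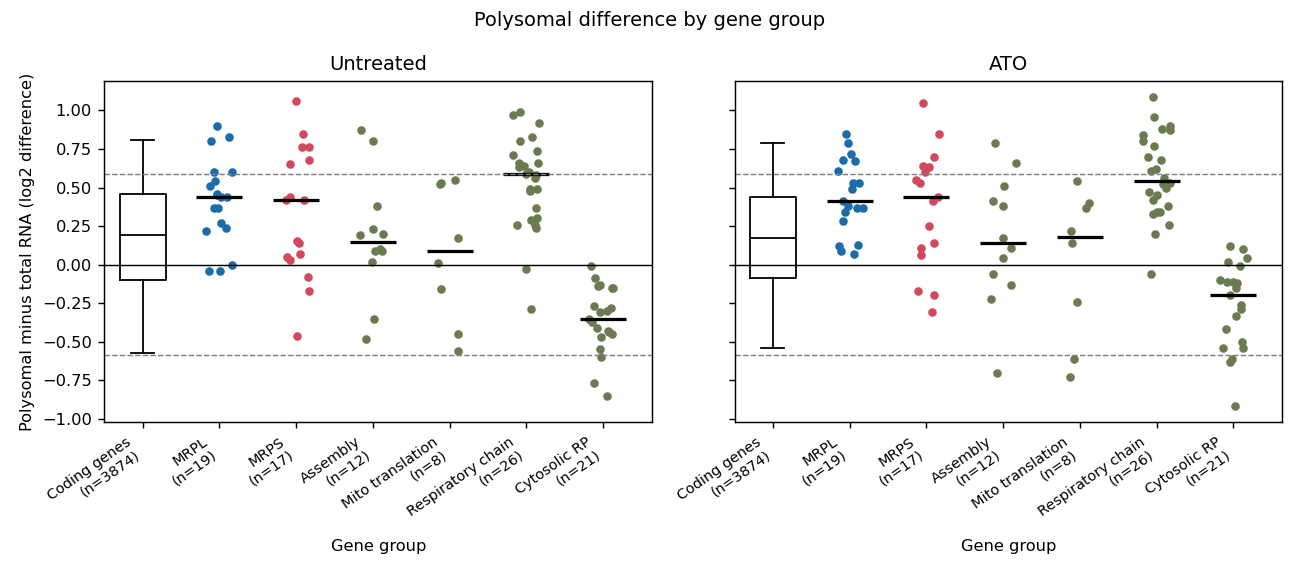
Polysomal minus total RNA (log2 difference, y axis) in untreated (left) and ATO cells (right) by gene group (x axis, number of genes past the filter in brackets). The box gives the median and quartiles of coding genes with whiskers at the 5th and 95th percentile, points are genes, black bars are medians, and dashed lines mark 1.5-fold; the MRPL and MRPS medians (0.44 and 0.42 untreated) lie between those of the respiratory chain and the cytosolic ribosomal proteins.

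The comparison of ATO with untreated cells in total RNA asked whether the amount of these mRNAs differed. Differences were small. The 36 genes had a median of -0.03, against -0.02 over all coding genes, with none over 1.5-fold higher (0.103% of coding genes) and none lower (0.361%), and 20 of them lay within 0.10 of 0. MRPL15 on chromosome 8 was lowest at -0.34, from 10.54 in untreated to 10.20 in ATO total RNA. MRPS24, a counterpart of bacterial S3, stood at -0.33 (11.91 and 11.58), MRPS28 at -0.28 (9.87 and 9.59) and MRPL14, the counterpart of bacterial L14, at -0.26 (9.39 and 9.13). Highest were MRPL18 (0.17), MRPL37 (0.16), MRPL22 (0.15) and MRPS18C (0.13). The medians of the large and small subunit were -0.04 and -0.02.

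In polysomal RNA the genes differed more between ATO and untreated cells, in either direction, around a median of -0.055 (-0.02 over all coding genes). One gene, MRPL1 on chromosome 4, was over 1.5-fold higher with ATO (2.78% of the 36, beside 0.258% of coding genes), and none was lower (0.878% of coding genes). MRPL1 read 9.89 in untreated and 10.55 in ATO polysomal RNA, and 9.93 and 10.02 in total RNA, so that the ATO polysomal sample stood apart from the other 3. The difference of 0.66 lay above 99.92% of coding genes and 0.715 above the median of its group. MRPL15 (10.54 and 10.92) and MRPL44 (10.56 and 10.94) followed at 0.38 each, then MRPS27 at 0.29. On the low side were MRPL14 (9.90 and 9.47, a difference of -0.43), MRPL13 (10.23 and 9.83, -0.40), MRPS14 (13.26 and 12.90, -0.36) and MRPL22 (9.52 and 9.18, -0.34). The standard deviation over the 36 genes was 0.25, against 0.21 over coding genes, while in total RNA it was 0.14 against 0.17. The medians of the large and small subunit were -0.01 and -0.10.

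The ATO differences in total and in polysomal RNA share no sample. They correlated across the 36 genes at r = -0.001 (rho -0.01), and across all coding genes at r = 0.05. Lower in both fractions were 12 genes, higher in both 7 and opposite 16, and 1 had no difference in 1 fraction. The same sign was thus found in 52.8% of the 36 genes and in 51.2% of coding genes. MRPL14 (-0.26 and -0.43) was the gene nearest to 1.5-fold lower in both fractions.

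**Figure D5:**
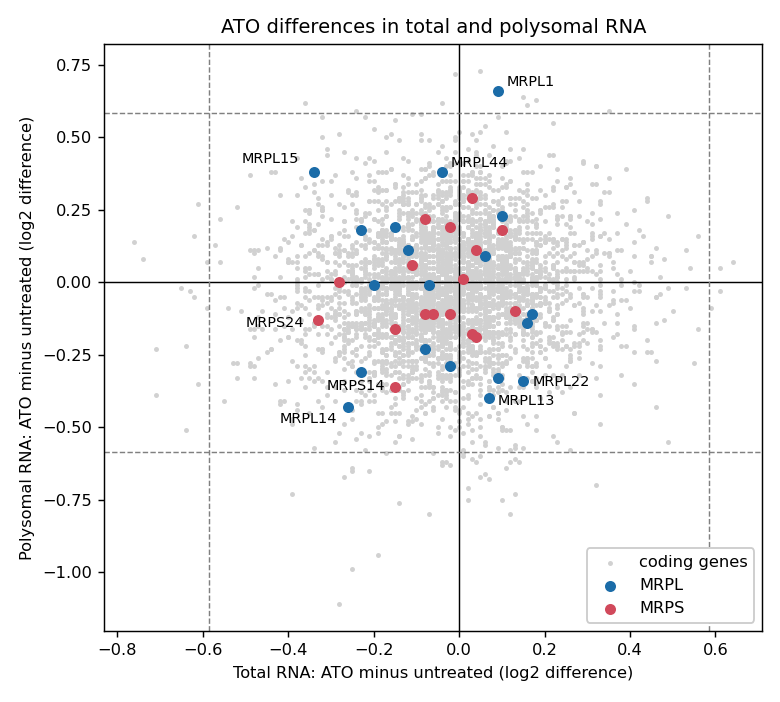
ATO minus untreated (log2 difference) in total RNA (x axis) and polysomal RNA (y axis) for 3874 coding genes (grey), 19 MRPL genes (blue) and 17 MRPS genes (red), with dashed lines at 1.5-fold. MRPL1 alone of the coloured points lies past 1.5-fold, in polysomal RNA.

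The series' design sets the genes enriched on polysomes in untreated cells beside those in ATO cells. Gene by gene, this is the polysomal difference in ATO cells minus that in untreated cells, which uses all 4 samples. The median over the 36 genes was 0.015, against 0.00 for all coding genes. MRPL15, the counterpart of bacterial L15, passed 1.5-fold on the high side (2.78% of the 36, beside 1.6% of coding genes) and none on the low side (2.01% of coding genes). Its value of 0.72 lay above 99.38% of coding genes. The polysomal and total signals of MRPL15 were equal at 10.54 in untreated cells, and in ATO cells the polysomal signal was 10.92 and the total signal 10.20, so total and polysomal RNA moved to opposite sides. MRPL1 came next at 0.57, just under 1.5-fold, then MRPL44 (0.42) and MRPL35 (0.41). Lowest were MRPL22 (-0.49), MRPL13 (-0.47), MRPL33 (-0.42) and MRPL37 (-0.30), so the 4 highest and the 4 lowest of the 36 genes were all MRPL genes. By symbol, the large subunit ranged from -0.49 to 0.72 and the small from -0.23 to 0.30, with medians of 0.03 and 0.00. PTCD3 and DAP3, small-subunit proteins without an MRP symbol, stood at 0.67 and 0.23. PTCD3 thus lay above every MRPS gene and above MRPL1, so large values were not confined to the large subunit. Every value here rests on the ATO total sample, whose labels conflict, whereas the untreated polysomal difference and the ATO difference in polysomal RNA do not use it.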

How the data were processed

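LN229 cells were profiled on arrays in 4 samples, grouped by title, 1 per group. Per the labels' protocols, sucrose gradients separated the polysomes, and cDNA was made with the GeneChip WT reagent kit. The deposited values are log2 signals to 2 decimals, made by the authors with Affymetrix Expression Console per the submitters' processing notes. How probes were summarised and normalized, and the genome build, is not stated in what was used here. The series' design text names technical triplicates, pooled and analysed in the Transcriptome Analysis Console. The values were used as given.

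Of 65528 probe sets, 16127 had 1 symbol in the platform annotation, 419 several and 48982 none; 1 probe set shared by MRPL53 and another symbol was left out. Coding genes were typed through the Entrez identifier in RefSeq (GRCh38.p14), and the probe set with the highest mean stood for a gene. Genes with a mean of at least 7.8 were kept. Differences of log2 values were formed and genes past 1.5-fold counted, with no test, since each group holds 1 sample; the number of arrays limits the precision. A planned description by protein length was not run, because no protein sequences were used here. Promoter windows are RefSeq's (GRCh38.p14), with those on chromosome 8 left out. Python 3.11.15, pandas 2.3.3, scipy 1.17.1 and statsmodels 0.14.6 were used, and the steps were tested on simulated data.

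The members and gene lists were chosen with earlier results of these data known. Every member could be named; those detailed were up to 4 per direction in each comparison, up to 6 high in both states and every gene below 0 in both. From other lists, genes past 1.5-fold in both states and up to 3 per direction were named. A gene was said to stand apart when over 1.5-fold from the members' median.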

Additional observations from a re-analysis of the deposited data

Results flagged for a closer look

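MRPL15 was picked out because its ATO differences went opposite ways in the fractions, lower in total RNA (-0.34) and higher in polysomal RNA (0.38), and differed by 0.72. With 1 sample per group this difference was not tested. No group held enough samples to look for an outlying sample.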

How the results depend on the processing

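Alternatives were samples centred or quantile normalized, the filter dropped or moved to the 75th percentile, 32 added on the linear scale, a threshold of 2-fold, probe sets averaged, a lowess trend on signal (span 0.3) subtracted, and the subunit by structure. Leaving out MRPS21, MRPS10 and MRPL30, which have measured pseudogenes, and moving MRPS18A and MRPS18B between the classes of bacterial homology were alternatives chosen after seeing the data. The median relative to all coding genes kept within 0.10 of its value in all 5 comparisons under each setting run on it. Of these settings, centring cannot move it. Averaging probe sets cannot move the members' own values, since each member has 1 probe set. Genes over 1.5-fold higher on polysomes in untreated cells numbered 11, and 5 with centring, 6 after the lowess subtraction, 7 of 21 with the stricter filter and 1 at 2-fold; 1 gene was lower with centring and 1 after the lowess subtraction. In ATO cells the number was 12, and 4 with centring, 7 with quantile normalization, 3 after the lowess subtraction and 1 at 2-fold. The members' share stayed above that of all coding genes each time (lowess: 16.7% against 6.45%, and 8.33% against 5.76%). At 2-fold this share rests on 1 of 36 genes in each state (2.78%, beside 1.47% untreated and 1.29% ATO). After the lowess subtraction it rests on 3 of 36 in ATO cells. On so few genes these shares cannot be set apart from the background. For ATO in polysomal RNA the 1 higher gene became 0 with the stricter filter and at 2-fold. For the change of the polysomal difference, 1 became 2 with centring (MRPL1 at 0.585), 0 with the stricter filter and 0 at 2-fold. The large-minus-small difference of medians reached 0.145 in untreated cells and turned to 0.20 in ATO cells with the stricter filter, where fewer genes are tested. Depth does not apply to array signals. No paired analysis was possible because each group holds 1 sample, and no sample could be left out for the same reason.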
